A study of Mus musculus with 21 samples.

Results

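The genes described are 6 classical cadherins, Cdh1, Cdh2, Cdh3, Cdh4, Cdh6 and Cdh11, together with the protocadherin Pcdh8. They were chosen by name, with earlier results of these data known, and not by a cut on their measured values. Other classical cadherins lie outside this set. The 7 genes are 7 of the 48321 gene rows in each count table. All 7 are among the 14311 genes that passed the filter on low counts and entered the tests.

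Classical cadherins are transmembrane proteins that hold neighbouring cells together by binding like molecules on the opposite cell in a calcium-dependent way, and their cytoplasmic tails bind catenins that link to actin. In epithelial-mesenchymal transition, the change from an epithelial sheet to migrating cells, loss of E-cadherin (Cdh1) and gain of N-cadherin (Cdh2) is the textbook cadherin switch, and Snai1, Snai2, Zeb1 and Zeb2 are known repressors of Cdh1. TWIST1 is a basic helix-loop-helix factor that acts as a homodimer or as a heterodimer with the E-proteins TCF3, TCF4 and TCF12. It is best known for its part in cranial mesoderm, neural crest and epithelial-mesenchymal transition.

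RNA was sequenced from embryoid bodies, free-floating aggregates of differentiating embryonic stem cells, at day 3, in 7 groups of 3 samples. All lines derive from A2loxCre mouse embryonic stem cells, labelled C57BL/6. The engineered lines carry a construct integrated behind a doxycycline-inducible promoter, and induction lasted 16 h. The groups are the parental A2loxCre line with doxycycline, a Twist1 monomer line without doxycycline (here the untreated monomer line), the same line with doxycycline (the treated monomer line), and 4 lines with doxycycline that carry a TWIST1-TWIST1 homodimer, a TWIST1-TCF3, a TWIST1-TCF4 or a TWIST1-TCF12 dimer. The labels do not say how many clones stand for a line or whether the replicates are separate cultures, so p-values measure only the spread between these samples, which may be technical. The untreated monomer line differs from the parental line both in its construct and in the absence of doxycycline, and these cannot be told apart. A parental line without doxycycline was not analysed here, so in the 2 monomer groups doxycycline and the induced factor cannot be told apart either. The dimer lines were sampled only with doxycycline, so the line, its construct, its Twist1 level and the partner cannot be told apart in them. Comparisons of the dimer lines with the untreated monomer line also mix line with doxycycline.

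Libraries held 6648842 to 15999693 counts, so 3 counts in a library correspond to 0.188 to 0.451 CPM, the unit used here for levels (a gene's counts scaled by the effective size of the library). These floors cover counting error only. Twist1 stood at 8.11 CPM in parental samples, 5.07 in the untreated and 613.0 in the treated monomer line, 182.3 in the homodimer line and 39.4 to 55.2 in the 3 lines with an E-protein partner. Tcf4 was at 330.4 CPM in the TCF4 dimer line against 47.5 in the parental line. Tcf3 was at 154.2 CPM in the libraries labelled TCF3 dimer against 167.2, and Tcf12 was at 93.1 ± 34.8 CPM (SD, n = 3) in those labelled TCF12 dimer against 104.3 in those labelled TCF3 dimer, so these partner genes do not check the TCF3 and TCF12 labels. TCF12 replicate 1 stood apart from the other libraries: the rank correlation between its deviation from its group and gene length was -0.674, against -0.425 to 0.467 in the other groups. The biological coefficient of variation over all genes was 0.120 with it and 0.0539 without it, and results that turn on this library are given with and without it. Untreated monomer replicate 1 also stood apart from its group, with a chi-square per degree of freedom of 35.5 and 39.7 against its replicates and 2.56 between these. The sum of the listed pluripotent epiblast markers ran from 2444 to 4731 CPM over the 21 libraries.

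The set of RefSeq promoter sequences used here (GRCm38.p6) held the 250 bases before the annotated start for 2 of the 7 members, Cdh6 and Pcdh8. Both are printed 5′ to 3′ on the gene's strand because the induced factors bind E-boxes (CANNTG), and because Cdh6 and Pcdh8 differ in which of the searched motifs their windows hold. Capitals mark matches on either strand to CANNTG, to the TATA box letters TATAAA or to the TCF/LEF core CTTTGA or CTTTGT. No match overlaps another.

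Cdh6 (chr15:13173676-13173925, minus strand): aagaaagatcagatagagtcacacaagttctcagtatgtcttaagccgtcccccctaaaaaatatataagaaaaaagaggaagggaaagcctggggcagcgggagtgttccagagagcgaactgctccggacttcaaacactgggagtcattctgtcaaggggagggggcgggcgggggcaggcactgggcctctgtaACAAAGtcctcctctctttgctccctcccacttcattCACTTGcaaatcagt
Pcdh8 (chr14:79771313-79771562, minus strand): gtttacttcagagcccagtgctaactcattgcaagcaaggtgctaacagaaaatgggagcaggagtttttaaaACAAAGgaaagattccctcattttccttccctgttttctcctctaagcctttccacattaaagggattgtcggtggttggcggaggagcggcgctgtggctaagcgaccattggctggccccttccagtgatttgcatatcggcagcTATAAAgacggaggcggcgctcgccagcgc

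The Cdh6 window holds an E-box, CACTTG, 15 to 10 bases before the start, and ACAAAG, the TCF/LEF core on the other strand, 52 to 47 bases before it. The Pcdh8 window holds TATAAA 30 to 25 bases before the start and ACAAAG 177 to 172 bases before it, and no E-box letters. Over 27025 RefSeq promoter windows of the same length, 66.0% hold CANNTG, 13.0% TATAAA and 27.7% the TCF/LEF core. Cdh2, Cdh1, Cdh3, Cdh4 and Cdh11 are named only.

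Levels between genes are compared per kilobase of exon, and the order in the parental line was steep. Cdh1 stood at 222.8 ± 1.37 CPM per kb (SD, n = 3), Cdh3 (P-cadherin) at 15.0 ± 0.649 and Cdh2 at 5.16 ± 0.243. Below them came Pcdh8 at 3.43 ± 0.0954, Cdh11 at 1.24 ± 0.0818, Cdh4 at 0.821 ± 0.0639 and Cdh6 at 0.222 ± 0.0515. Every neighbouring pair in this order was separated by more than its spread. Cdh1 made up 89.6% of the summed per-kb level of the 7 genes in the parental line and 82.0% to 90.0% in the other groups, so it was the predominant transcript among these 7 throughout. Cdh11 made up 0.50% in the parental line, 3.17% in the TCF3-labelled, 1.50% in the TCF4 and 2.79% in the TCF12-labelled libraries.

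**Figure D1:**
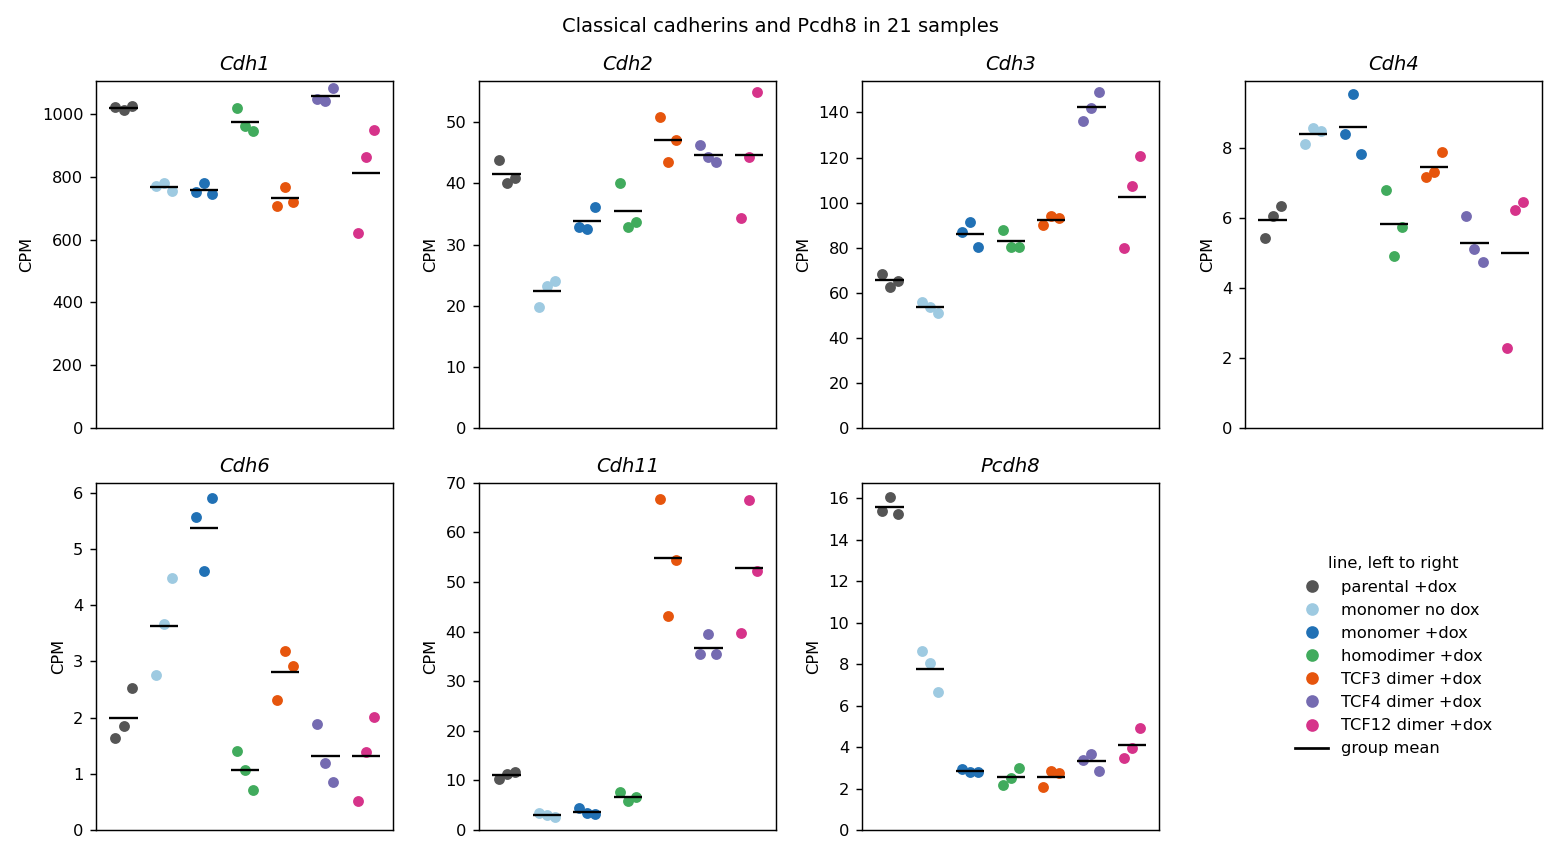
Expression of the 7 genes in every library, as CPM on the vertical axis of each panel, with points for samples and bars for group means (n = 3); groups run from the parental line on the left to the TCF12 dimer on the right. Cdh11 is at 35.5 to 66.8 CPM in the 9 libraries with an E-protein partner and at most 11.6 in the other 12, and Pcdh8 is at 15.2 to 16.0 CPM in parental samples and at most 8.62 elsewhere.

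Cdh1, which encodes E-cadherin of epithelial junctions (ENSMUSG00000000303, GRCm38 chr8:106603351-106670246, plus strand), was lower in 3 groups than in the parental line in every alternative tried. It measured 1022, 1012 and 1023 CPM in the parental replicates, 770.7, 779.9 and 753.4 in the untreated monomer line and 751.0, 780.4 and 744.3 in the treated monomer line. The replicates read 1018, 962.4 and 944.5 CPM in the homodimer line, 706.0, 766.9 and 720.5 in the TCF3-labelled, 1048, 1041 and 1081 in the TCF4 and 620.6, 861.8 and 948.6 in the TCF12-labelled libraries. The monomer groups and the TCF3-labelled libraries overlapped each other and lay wholly below the parental, homodimer and TCF4 samples. TCF12 replicate 1 was the lowest library of all, TCF12 replicate 2 lay between the low and the high groups, and TCF12 replicate 3 lay within the homodimer range.

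Against the parental line, edgeR's quasi-likelihood test with Benjamini-Hochberg adjustment over all genes tested gave Cdh1 a log2 fold change of -0.41 ± 0.10 (SE; adjusted p = 0.0067) in the untreated monomer line. It was -0.43 ± 0.10 (edgeR adjusted p = 0.0046) in the treated monomer line and -0.48 ± 0.10 (edgeR adjusted p = 0.0013) in the TCF3-labelled libraries. In the TCF12-labelled libraries Cdh1 was 1.26-fold lower (edgeR adjusted p = 0.021). That difference was -0.17 ± 0.05 (edgeR adjusted p = 0.0074) without TCF12 replicate 1, and the call was lost without parental replicate 1 (0.054), without parental replicate 3 (0.056) and when these 2 groups alone were fitted (0.341). Cdh1 did not pass in the homodimer line (log2 -0.06, adjusted p = 0.85 by edgeR) or in the TCF4 dimer line (0.05, adjusted p = 0.85 by edgeR). Within the monomer line, induction left Cdh1 at a log2 difference of -0.02 (edgeR adjusted p = 1).

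Cdh3, P-cadherin, is the other epithelial member and neighbours Cdh1 on chromosome 8 (ENSMUSG00000061048, GRCm38 chr8:106510891-106557297, plus strand), ending 46.053 kb before Cdh1 begins. Its order over the groups differed from that of Cdh1. It measured 68.5, 62.8 and 65.5 CPM in parental samples, 56.1, 53.6 and 51.3 in the untreated and 87.1, 91.5 and 80.4 in the treated monomer line. In the other lines it read 87.8, 80.4 and 80.5 CPM (homodimer), 90.0, 94.2 and 93.1 (TCF3-labelled), 136.3, 142.0 and 149.0 (TCF4) and 79.7, 107.2 and 120.7 (TCF12-labelled). The 3 TCF4 samples were the highest of the 21, the untreated monomer samples the lowest, and every other group lay wholly above the parental line.

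Cdh3 rose against the parental line by 1.12 ± 0.11 on the log2 scale in the TCF4 dimer line (2.17-fold; edgeR adjusted p = 4.6e-07) and by 0.50 ± 0.11 in the TCF3-labelled libraries (edgeR adjusted p = 0.0014). In the TCF12-labelled libraries it rose by 0.65 ± 0.11 (edgeR adjusted p = 0.00016), by 0.79 without TCF12 replicate 1, and the adjusted p was 0.082 when the 2 groups were fitted alone. The treated monomer line was 1.32-fold higher (edgeR adjusted p = 0.011), and this call was lost with scaling by library size alone (0.081), without parental replicate 2 (0.056) and without treated monomer replicate 2 (0.060). Within the monomer line, the treated samples were 1.61-fold above the untreated ones (log2 0.69 ± 0.11, edgeR adjusted p = 0.00079). The homodimer line did not pass against the parental line (0.34 ± 0.11, edgeR adjusted p = 0.053), and it passed without TCF12 replicate 1 (0.34, edgeR adjusted p = 0.00011). The untreated monomer line did not pass either (-0.29 ± 0.11, edgeR adjusted p = 0.067), and it passed without TCF12 replicate 1 (-0.30, edgeR adjusted p = 0.00051). Cdh1, Cdh3 and Cdh11 all lie on chromosome 8. Over 526 chromosome 8 genes of at least 10 CPM, the median log2 difference from the parental line was taken less the median over all chromosomes. It was -0.093 in the untreated monomer, -0.105 in the treated monomer and -0.084 in the TCF3-labelled groups. In those groups Cdh1 was lower in every alternative. It was 0.061 in the homodimer, 0.072 in the TCF4 and 0.098 in the TCF12-labelled groups. The part of this shift in the levels of Cdh1, Cdh3 and Cdh11 was not tested.

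Cdh2, N-cadherin of mesenchymal and neural cells (ENSMUSG00000024304, GRCm38 chr18:16588877-16809246, minus strand), was lower than the parental line by the test in 1 group, the untreated monomer line. Its replicates were 43.8, 40.1 and 40.9 CPM in parental samples, 19.9, 23.3 and 24.0 in the untreated and 32.9, 32.5 and 36.1 in the treated monomer line. They were 40.0, 32.9 and 33.6 CPM in the homodimer line, 50.9, 43.5 and 47.0 in the TCF3-labelled, 46.2, 44.4 and 43.4 in the TCF4 and 34.4, 44.4 and 55.0 in the TCF12-labelled libraries. The untreated monomer samples were below all others, and the TCF12-labelled samples spread from within the homodimer range to the highest value of the 21.

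Cdh2 was 1.85-fold lower in the untreated monomer line than in the parental line (log2 -0.88 ± 0.13, edgeR adjusted p = 7.6e-05). Against that untreated line it was higher by 0.66 (edgeR adjusted p = 0.0011) in the homodimer line, by 1.07 (5e-06) in the TCF3-labelled, by 0.99 (8.9e-06) in the TCF4 and by 0.99 (7.6e-06) in the TCF12-labelled libraries. Within the monomer line the treated samples were 1.5-fold higher (0.59 ± 0.13, edgeR adjusted p = 0.023). That call was kept without untreated replicate 3 and lost without any other of the 6 monomer libraries (edgeR adjusted p = 0.055 to 0.135) and with scaling by library size alone (0.079). Against the parental line, Cdh2 in the TCF3-labelled (0.18, edgeR adjusted p = 0.32), TCF4 (0.10, 0.72) and TCF12-labelled libraries (0.10, 0.55) did not pass. Without TCF12 replicate 1, the TCF12-labelled libraries (0.25, edgeR adjusted p = 0.030) and the treated monomer line (-0.31, edgeR adjusted p = 0.0067, against 0.12 with it) passed. When only the groups compared were fitted, Cdh2 passed as higher in the TCF3-labelled libraries (0.17, edgeR adjusted p = 0.047). It passed there as lower in the homodimer (-0.23, 0.032) and treated monomer lines (-0.31, 0.0018).

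Cdh4, R-cadherin of retina and other tissues, varied less over the groups than Cdh6, Cdh11 or Pcdh8, with group means of 5.00 to 8.61 CPM (ENSMUSG00000000305, GRCm38 chr2:179442431-179899373, plus strand). It ranged from 5.45 to 6.36 CPM in parental samples, from 8.13 to 8.57 in the untreated and 7.85 to 9.56 in the treated monomer line, and from 7.19 to 7.89 in the TCF3-labelled libraries. The homodimer line had 4.94 to 6.80 CPM, the TCF4 line 4.74 to 6.06 and the TCF12-labelled libraries 2.31, 6.24 and 6.46, with replicate 1 the lowest of all. The 2 monomer groups and the TCF3-labelled libraries lay above every parental sample, yet no group passed against the parental line: the largest difference was 0.53 ± 0.23 on the log2 scale in the treated monomer line (edgeR adjusted p = 0.12). Without TCF12 replicate 1, both monomer groups passed (0.49, edgeR adjusted p = 0.0074, and 0.52, 0.0046).

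Cdh11, cadherin-11 or OB-cadherin, is a type II cadherin known from mesenchyme and bone-forming cells (ENSMUSG00000031673, GRCm38 chr8:102632095-102785642, minus strand). It changed in every group against the parental line and in opposite directions: it fell in the monomer and homodimer lines and rose in all 3 lines with an E-protein partner. Its replicates were 10.3, 11.4 and 11.6 CPM in parental samples, 3.42, 3.03 and 2.54 in the untreated monomer, 4.44, 3.38 and 3.33 in the treated monomer and 7.66, 5.92 and 6.58 in the homodimer line. They were 66.8, 43.2 and 54.4 CPM in the TCF3-labelled, 35.5, 39.4 and 35.5 in the TCF4 and 39.8, 66.5 and 52.3 in the TCF12-labelled libraries. The 9 libraries with a partner lay above all 12 others, and the homodimer samples lay between the monomer and the parental samples without touching either.

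Against the parental line, Cdh11 rose 4.94-fold in the TCF3-labelled libraries (log2 2.30 ± 0.18, edgeR adjusted p = 1.1e-08), 3.31-fold in the TCF4 (1.73 ± 0.18, 1.2e-06) and 4.78-fold in the TCF12-labelled libraries (2.26 ± 0.18, 2.4e-08). It fell 3.75-fold in the untreated (edgeR adjusted p = 9.3e-06) and 2.98-fold in the treated monomer line (4e-05). The untreated and treated monomer samples overlapped (0.33, edgeR adjusted p = 0.9). Against the untreated monomer line, Cdh11 was 18.5-fold higher in the TCF3-labelled, 12.4-fold in the TCF4 and 17.9-fold in the TCF12-labelled libraries (edgeR adjusted p = 5.7e-11, 2.4e-10 and 2.9e-11). All the comparisons with the parental line share its 3 samples, and those with the untreated monomer line share that line's. The fall in the homodimer line was smaller, -0.73 ± 0.20 on the log2 scale (edgeR adjusted p = 0.029). It did not pass with scaling by library size alone (0.060), nor without parental replicate 2 or 3 or homodimer replicate 2 or 3 (0.085, 0.095, 0.136 and 0.088).

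Cdh6, K-cadherin, is the other type II member, known from kidney, neural crest and other embryonic epithelia (ENSMUSG00000039385, GRCm38 chr15:13028701-13173675, minus strand). It was the lowest member per kb in the parental line, and it was highest in the monomer groups. Its replicates were 1.64, 1.84 and 2.52 CPM in parental samples, 2.77, 3.66 and 4.49 in the untreated and 5.58, 4.61 and 5.91 in the treated monomer line. The homodimer line had 1.40, 1.08 and 0.72 CPM, the TCF3-labelled libraries 2.31, 3.18 and 2.93, the TCF4 line 1.89, 1.20 and 0.85 and the TCF12-labelled libraries 0.52, 1.39 and 2.02. Every treated monomer sample was above every other sample, and all homodimer samples were below the parental ones.

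Cdh6 was 2.66-fold higher in the treated monomer than in the parental line (log2 1.41 ± 0.30, edgeR adjusted p = 0.0022). It did not pass in the untreated monomer line (0.89 ± 0.32, edgeR adjusted p = 0.06), and passed there without TCF12 replicate 1 (0.89, edgeR adjusted p = 0.0084). Against the treated monomer line it was 5.01-fold lower in the homodimer line (-2.32 ± 0.34, edgeR adjusted p = 5.4e-05), 4.15-fold lower in the TCF4 (4.9e-05) and 3.92-fold lower in the TCF12-labelled libraries (7.8e-05). Cdh6 is the gene whose window printed above holds CACTTG.

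Pcdh8, paraxial protocadherin, belongs to the delta-protocadherins and is known from paraxial mesoderm and the brain (ENSMUSG00000036422, GRCm38 chr14:79766775-79771312, minus strand). It was lower than the parental line in all 6 other groups, the only one of the 7 genes of which this was so by the test. Its replicates were 15.4, 16.0 and 15.2 CPM in parental samples, 8.62, 8.05 and 6.64 in the untreated and 2.96, 2.81 and 2.79 in the treated monomer line. They were 2.16, 2.51 and 2.98 CPM in the homodimer line, 2.07, 2.82 and 2.77 in the TCF3-labelled, 3.38, 3.68 and 2.86 in the TCF4 and 3.46, 3.94 and 4.92 in the TCF12-labelled libraries. The untreated monomer samples formed a middle level that overlapped neither the parental samples above nor those of the other 5 groups below.

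The fall of Pcdh8 against the parental line was 2.02-fold in the untreated monomer line (log2 -1.01 ± 0.14, edgeR adjusted p = 2.9e-05) and 5.43-fold in the treated monomer line (-2.44 ± 0.16, 2.2e-09). It was 6.06-fold in the homodimer line (edgeR adjusted p = 1.8e-09), 6.08-fold in the TCF3-labelled (3.9e-10), 4.73-fold in the TCF4 (2.7e-09) and 3.75-fold in the TCF12-labelled libraries (1.6e-08). Within the monomer line the treated samples were 2.69-fold below the untreated ones (-1.43 ± 0.17, edgeR adjusted p = 3.5e-05). These calls held in every alternative tried. An antisense gene, Gm9748, shares 436 exonic bases with Pcdh8 and was at 0 to 0.10 CPM. The strand setting of the counting is not given in the sources used here.

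Counted over the 7 genes, 4 passed against the parental line in the untreated monomer line, where 19.9% of all tested genes passed. In the treated monomer line 5 passed (20.0% of all genes), in the homodimer line 2 (8.84%), in the TCF3-labelled libraries 4 (28.3%), in the TCF4 line 3 (12.9%) and in the TCF12-labelled libraries 4 (27.0%). The median log2 difference of the 7 genes in these comparisons was -0.41, -0.30, -0.23, 0.32, 0.05 and -0.22, beside 0.00 to 0.02 for all genes. Without TCF12 replicate 1 the counts were 7 (36.8% of all genes), 7 (35.2%), 4 (20.4%), 4 (46.5%), 3 (28.1%) and 5 (30.3%). Without untreated monomer replicate 1, 4 passed in the untreated monomer line, Cdh1 (-0.41, edgeR adjusted p = 0.022), Cdh2 (-0.81, 0.00086), Cdh11 (-1.99, 4.8e-05) and Pcdh8 (-1.08, 8.5e-05). In fits of just the 2 groups of a comparison, the count in the untreated monomer line was 7, in the homodimer line 5 and in the TCF12-labelled libraries 2.

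Between the treated and the untreated monomer samples 3 of the 7 passed, Cdh2 and Cdh3 higher and Pcdh8 lower, where 2.00% of all genes passed. The call of Cdh2 rested on single libraries as given above. Against the untreated monomer line, 6 passed in the homodimer line (22.8% of all genes), 4 in the TCF3-labelled (28.9%), 7 in the TCF4 (32.3%) and 6 in the TCF12-labelled libraries (37.0%). In the TCF4 line Cdh1, Cdh2, Cdh3 and Cdh11 were higher and Cdh4, Cdh6 and Pcdh8 lower than in the untreated monomer line. The call of Cdh4 there (-0.67 ± 0.22, edgeR adjusted p = 0.027) was lost without any 1 of the 3 untreated monomer libraries, without TCF4 replicate 2 or 3 and with scaling by library size alone (edgeR adjusted p = 0.051 to 0.105). Without untreated monomer replicate 1, the counts against the untreated monomer line were 6, 4, 6 and 6. Against the treated monomer line, 3 passed in the homodimer line (18.5%), 3 in the TCF3-labelled (22.1%), 6 in the TCF4 (27.4%) and 5 in the TCF12-labelled libraries (33.5%). Of the 133 tests of the 7 genes over the 19 comparisons, 76 passed, and 51 of those kept their direction and passed in every alternative.

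**Figure D2:**
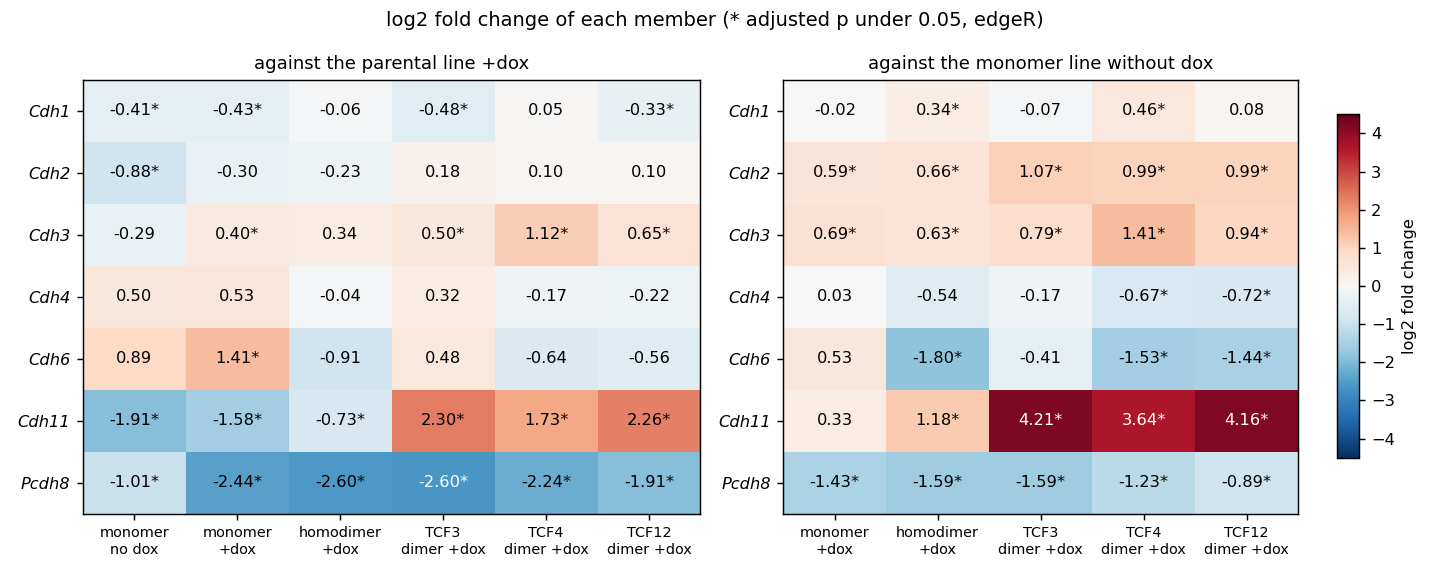
Log2 fold changes of the 7 genes, shown as coloured cells with the value printed, against the parental line (left) and against the monomer line without doxycycline (right); stars mark an edgeR adjusted p under 0.05. Cdh11 runs from -1.91 to 2.30 against the parental line, and Pcdh8 is negative and starred in all 6 columns.

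The cadherin switch was followed within each sample as Cdh1 counts per Cdh2 count, a ratio that does not depend on scaling between libraries. It was 23.3, 25.2 and 25.0 in parental samples, 38.8, 33.5 and 31.4 in the untreated monomer and 22.8, 24.0 and 20.6 in the treated monomer line. The homodimer line had 25.4, 29.2 and 28.1 and the TCF4 line 22.7, 23.4 and 24.9. In the TCF3-labelled libraries it was 13.9, 17.6 and 15.3, and in the TCF12-labelled ones 18.0, 19.4 and 17.3. These 2 groups lay below all the others and TCF12 replicate 1 lay within its group. The untreated monomer samples were the highest.

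The difference from the parental line in log2(Cdh2/Cdh1), computed from CPM with 0.5 added, was 0.66 in the TCF3-labelled, 0.43 in the TCF12-labelled and 0.05 in the TCF4 libraries. It was -0.47 in the untreated monomer line, 0.13 in the treated monomer line and -0.16 in the homodimer line. With 3 samples against 3, the two-sided exact permutation test cannot go below p = 0.1. That value was reached in the TCF3-labelled, TCF12-labelled, untreated monomer and homodimer groups (Benjamini-Hochberg adjusted over the 6 comparisons, 0.15), and the exact permutation p was 0.2 (adjusted 0.24) in the treated monomer and 0.4 in the TCF4 line. No ratio passed after adjustment. In the groups at p = 0.1 by the permutation test, the edgeR calls of Cdh1 and Cdh2 differed. Cdh1 was called lower in the TCF3-labelled and TCF12-labelled libraries with Cdh2 not called. Both were called lower in the untreated monomer line and neither in the homodimer line. In fits of only the groups compared, Cdh2 was called higher in the TCF3-labelled libraries (edgeR adjusted p = 0.047) and lower in the homodimer line (0.032). Cdh1 was not called in the TCF12-labelled libraries in such a fit (edgeR adjusted p = 0.341). Without TCF12 replicate 1, Cdh1 was called lower (-0.17, edgeR adjusted p = 0.0074) and Cdh2 higher (0.25, edgeR adjusted p = 0.030) in the TCF12-labelled libraries. Per kb, Cdh1 was at 159.9 and Cdh2 at 5.85 CPM in the TCF3-labelled libraries.

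**Figure D3:**
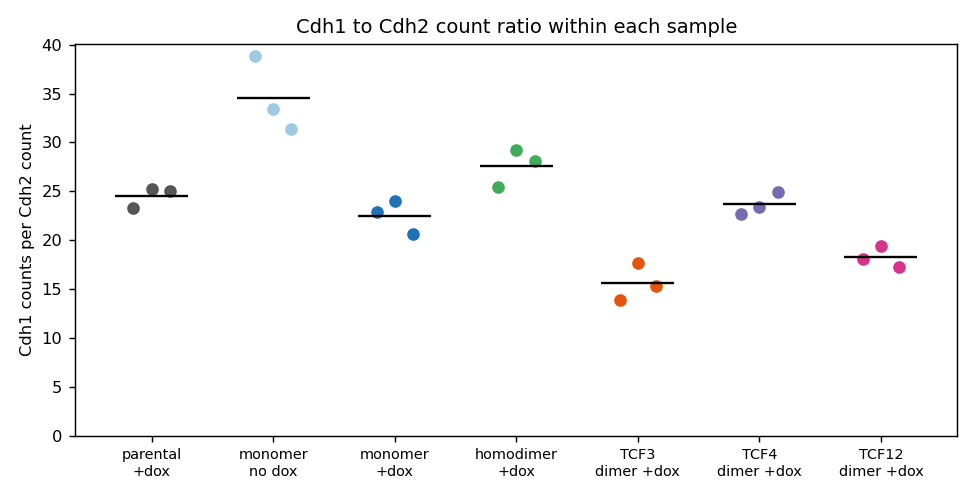
Cdh1 counts per Cdh2 count in each library (vertical axis), with points for samples and bars for group means (n = 3). The TCF3-labelled and TCF12-labelled samples sit between 13.9 and 19.4, and the untreated monomer samples between 31.4 and 38.8.

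Direct comparisons asked whether the members differed between the dimer lines. Each partner stood in its own line, so partner, line and Twist1 level cannot be told apart here. The mean of the 3 groups with an E-protein partner was set against the homodimer line, and 3 of the 7 genes passed (14.0% of all genes): Cdh11, Cdh3 and Cdh2, each higher, where 7.99% of all genes passed as higher. Cdh11 was 7.07-fold higher (log2 2.82 ± 0.17, edgeR adjusted p = 2e-09), with all 9 samples above the 3 homodimer samples. Cdh3 was 1.33-fold higher (0.42 ± 0.09, edgeR adjusted p = 0.0025), and the samples overlapped through TCF12 replicate 1. Cdh2 was 1.28-fold higher with overlap (0.36 ± 0.11, edgeR adjusted p = 0.028). Its call was lost without homodimer replicate 2 (0.186) or 3 (0.151), without TCF3 replicate 1 (0.051), with scaling by library size alone (0.091) and when only these groups were fitted (0.112). Without TCF12 replicate 1, 5 of the 7 passed (28.9% of all genes), Cdh1 (-0.14) and Cdh6 (0.77) being added.

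Between the TCF3-labelled and TCF4 libraries 4 of the 7 passed, where 19.7% of all genes did. Cdh1 was 1.44-fold lower in the TCF3-labelled libraries (-0.53 ± 0.10, edgeR adjusted p = 0.00091) and Cdh3 1.54-fold lower (-0.62 ± 0.10, edgeR adjusted p = 0.00026), so both epithelial cadherins were lower there, with no overlap of samples. Cdh11 was 1.49-fold higher (0.58 ± 0.16, edgeR adjusted p = 0.014), and not called without TCF3 replicate 1 (0.43, edgeR adjusted p = 0.090) or TCF4 replicate 3 (adjusted p = 0.057). Cdh6 was 2.17-fold higher (1.12 ± 0.32, edgeR adjusted p = 0.020), and not called without TCF3 replicate 2 or 3 or TCF4 replicate 2 or 3 (edgeR adjusted p = 0.055 to 0.126).

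Between the TCF12-labelled and TCF4 libraries 2 of the 7 passed (3.24% of all genes), both as lower (1.17% of all genes): Cdh1 at -0.38 ± 0.10 (edgeR adjusted p = 0.044) and Cdh3 at -0.47 ± 0.10 (edgeR adjusted p = 0.021). Leaving out TCF4 replicate 2 or 3 ended both calls (Cdh1 0.118 and 0.164, Cdh3 0.072 and 0.113, edgeR adjusted p), TCF4 replicate 1 ended that of Cdh1 (0.095), and in a fit of these 2 groups alone neither passed (0.63 for each). Without TCF12 replicate 1, Cdh1 (-0.22), Cdh3 (-0.32) and Cdh11 (0.69, edgeR adjusted p = 0.00016) passed, 3 of the 7 beside 4.76% of all genes. Between the TCF3-labelled and TCF12-labelled libraries 2 of the 7 passed (18.8% of all genes). Cdh6 was 2.05-fold higher in the TCF3-labelled ones (1.03 ± 0.33, edgeR adjusted p = 0.037) and did not pass without TCF3 replicate 2 or 3 or TCF12 replicate 1 (0.110, 0.094 and 0.075). Pcdh8 was 1.62-fold lower there (-0.70 ± 0.17, edgeR adjusted p = 0.0090), and did not pass without TCF3 replicate 1 (0.065), without TCF12 replicate 3 (0.051) or in a fit of the 2 groups alone (0.237). Cdh11 did not differ by the test between them (0.05 ± 0.16, edgeR adjusted p = 0.85).

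The repressors of Cdh1 were taken as a list of 4. All 4 rose against the parental line in each of the 3 groups with an E-protein partner, beside medians for all genes of 0.00 to 0.02. The median log2 change of the 4 was 3.09 in the TCF3-labelled, 2.07 in the TCF4 and 3.03 in the TCF12-labelled libraries. Snai1, a zinc finger repressor, was at 5.58 ± 0.80 CPM in parental samples (SD, n = 3) and at 45.4 ± 14, 26.9 ± 3.0 and 58.5 ± 21 in those groups. Zeb1 was at 1.34 CPM in parental samples and at 12.1, 4.98 and 8.64, and Zeb2 at 9.18 CPM and at 27.7, 16.5 and 21.1. Snai2 was below the level of 3 counts in the parental line (0.176 CPM) and at 7.65, 3.03 and 5.49 CPM in the same 3 groups. Cdh1 was called lower in the TCF3-labelled and TCF12-labelled groups and not in the TCF4 line, and all 4 repressors were called higher in each. In the untreated monomer line Cdh1 was lower. There Zeb2 fell (-1.79, edgeR adjusted p = 0.00012), Snai2 was called higher (0.964 CPM, edgeR adjusted p = 0.024) and neither Snai1 (-0.13, 0.83) nor Zeb1 (0.36, 0.48) passed. In the treated monomer line Cdh1 was lower, Zeb2 fell (-1.20, edgeR adjusted p = 0.0023), and Zeb1 (0.97, 0.019) and Snai2 (2.37, 0.019) were called higher. In the homodimer line Cdh1 was not called, and Zeb1 (1.60, edgeR adjusted p = 0.00032) and Snai2 (2.32, 0.038) were called higher. The part of the repressors was not tested. The summed level of the 4 was 13.5 to 18.2 CPM in parental, 9.08 to 11.4 in untreated monomer, 12.4 to 12.7 in treated monomer and 15.9 to 16.8 in homodimer samples. It was 73.0 to 119.4 CPM in the TCF3-labelled, 46.8 to 54.9 in the TCF4 and 74.4 to 104.9 in the TCF12-labelled libraries.

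Embryoid bodies hold several cell types, and in bulk RNA fewer cells of a type and less RNA per cell cannot be told apart. Where the listed primitive endoderm markers were high, the group means of Cdh4 and Cdh6 were high and Cdh1 was low. Of these markers 11 of 12 were tested and none was at 0 in any group. Their sum was 814 to 848 CPM in parental samples, 2684 to 3012 in the untreated and 2566 to 2808 in the treated monomer line and 1819 to 2093 in the TCF3-labelled libraries. It was 579 to 633 CPM in the homodimer, 583 to 651 in the TCF4 and 623 to 683 in the TCF12-labelled libraries. The same 3 groups with a high sum had the low Cdh1 values, apart from TCF12 replicate 1, and the highest group means of Cdh4 and Cdh6. Among the groups with a sum below the parental range, Cdh1 did not follow it. In the TCF12-labelled libraries Cdh1 was called lower, also without TCF12 replicate 1 (-0.17, edgeR adjusted p = 0.0074). In the homodimer and TCF4 lines it was not called. Neither Cdh4 (0.32, edgeR adjusted p = 0.32) nor Cdh6 (0.48, 0.31) passed against the parental line in the TCF3-labelled libraries. The pluripotent epiblast sum was highest in the parental line (4641 to 4731 CPM) and lowest in the TCF3-labelled libraries (2444 to 2754). It was 2825 to 3197 CPM in the TCF12-labelled libraries and 3395 to 3470 in the TCF4 line, where Cdh1 was not called. The surface epithelium sum was 857 to 951 CPM in parental samples, 607 to 711 in the TCF3-labelled and 895 to 962 in the untreated monomer libraries. It was 639 to 791 CPM in the TCF12-labelled, 831 to 858 in the homodimer, 811 to 820 in the TCF4 and 879 to 920 in the treated monomer libraries. The part of these cells in the result was not tested.

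Pcdh8 and the sum of the primitive streak markers, of which 9 of 12 were tested, were both highest in the parental line. The sum was 218 to 258 CPM in parental samples and 27.0 to 55.4 over all other groups. Among those other groups the 2 differed in order. The homodimer line had a sum of 49.0 to 55.4 CPM with a Pcdh8 mean of 2.55. The TCF12-labelled libraries had a sum of 30.1 to 39.1 CPM with a Pcdh8 mean of 4.11. Msgn1, a defining gene of presomitic mesoderm, was at 0 in all groups. Between the untreated and treated monomer lines, where Pcdh8 differed 2.69-fold, the sum was 44.7 to 51.5 and 43.0 to 43.8 CPM. The part of streak cells in the result was not tested. Cdh11 moved with the 12 lateral mesoderm and mesenchyme markers, whose sum was 146 to 162 CPM in parental samples, 352 to 466 in the TCF3-labelled, 218 to 235 in the TCF4 and 337 to 479 in the TCF12-labelled libraries. In the monomer lines, where Cdh11 fell, that sum was 163 to 192 CPM, above the parental range. Hand2 was at 0 in the untreated monomer line. The part of these cells in the rise of Cdh11 was not tested.

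**Figure D4:**
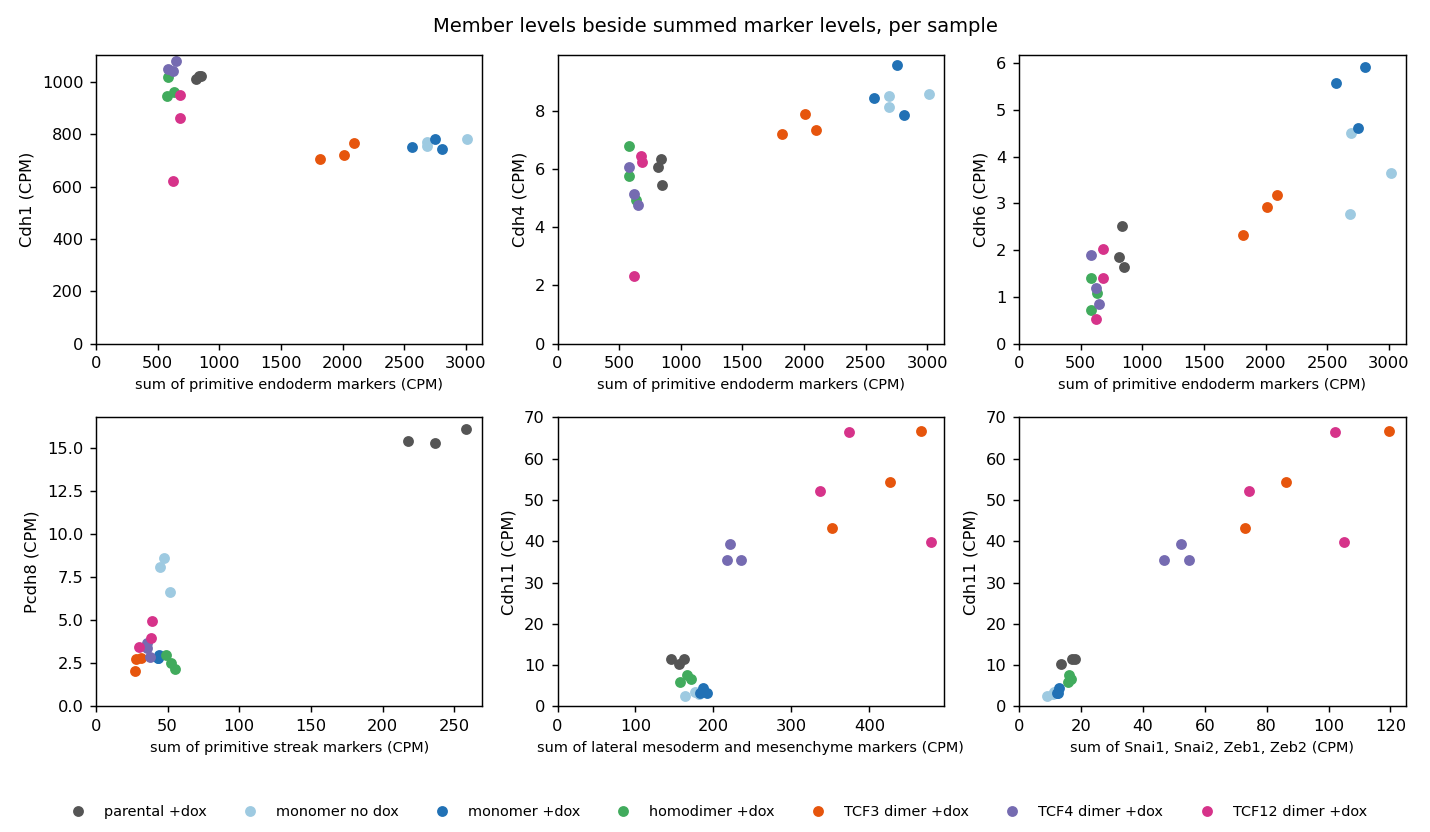
Members against marker sums, 1 point per library, all axes in CPM: Cdh1, Cdh4 and Cdh6 against the primitive endoderm sum, Pcdh8 against the primitive streak sum, and Cdh11 against the lateral mesoderm and mesenchyme sum and against the sum of Snai1, Snai2, Zeb1 and Zeb2. The parental samples stand alone at a streak sum of 218 to 258 CPM and 15.2 to 16.0 CPM of Pcdh8.

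Other genes of cadherin adhesion were taken from lists, and their counts against the parental line stand beside the shares of all genes called there: 19.9% in the untreated and 20.0% in the treated monomer, 8.84% in the homodimer, 28.3% in the TCF3-labelled, 12.9% in the TCF4 and 27.0% in the TCF12-labelled group. Of 13 other classical and related cadherins, 8 were tested, and against the parental line 3 rose and 2 fell in the TCF3-labelled libraries, 2 rose and 1 fell in the homodimer, TCF4 and TCF12-labelled groups, and 1 rose and 1 fell in each monomer group. Cdh5, VE-cadherin of endothelium, rose in the untreated monomer (1.80), treated monomer (2.15) and TCF3-labelled groups (1.95; edgeR adjusted p = 0.00044, 4.4e-05 and 7.9e-05), from 1.70 CPM to 5.88, 7.54 and 6.58. Those are the groups in which Cdh1 was called lower in every alternative. The 2 other named genes of this list followed other groups. Cdh22 rose in the homodimer (1.87), TCF3-labelled (2.17) and TCF12-labelled groups (2.03; edgeR adjusted p = 0.0041, 0.00022 and 0.00073). Cdh13 fell in the treated monomer (-2.16), homodimer (-1.82), TCF3-labelled (-1.22), TCF4 (-1.08) and TCF12-labelled groups (-1.81). It did not pass in the untreated monomer line (-1.07, edgeR adjusted p = 0.052).

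Of the 8 other delta-protocadherins, relatives of Pcdh8, 5 rose and 1 fell in the TCF3-labelled libraries and 1 rose and 4 fell in the untreated monomer line. Their median log2 changes were 1.05 and -0.70, where Pcdh8 fell in both. Pcdh11x was near the level of 3 counts in parental samples (0.319 CPM) and at 0 in the untreated monomer line (edgeR adjusted p = 0.02). It rose in the treated monomer (1.62), homodimer (2.50), TCF3-labelled (2.26), TCF4 (1.94) and TCF12-labelled groups (2.12; edgeR adjusted p = 0.038, 0.0014, 0.0013, 0.01 and 0.0034). Pcdh9 was at 0.746 CPM in parental samples and rose to 3.01 in the TCF3-labelled (2.01, edgeR adjusted p = 0.00094) and 2.23 in the TCF12-labelled libraries (1.62, 0.0090). Pcdh7 fell in both monomer groups (-1.87 and -1.61), the homodimer (-2.21) and the TCF4 line (-0.88; edgeR adjusted p = 0.00059, 0.0013, 0.00023 and 0.046).

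Of 12 tested catenins, nectins and other junction genes, 2 or 3 rose and 1 to 3 fell in each group against the parental line, with medians of 0.00 to 0.12. Jup, plakoglobin, rose from 97.1 CPM to 163.0 in the untreated and 180.1 in the treated monomer line and to 167.9 in the TCF3-labelled libraries (edgeR adjusted p = 3.7e-08, 3.7e-09 and 9.8e-09). It also rose, by less, to 128.6 CPM in the homodimer (0.41, edgeR adjusted p = 0.00013) and 113.3 in the TCF4 line (0.22, 0.017), and did not pass in the TCF12-labelled libraries (0.04, 0.67). Ctnna2, alpha-N-catenin, rose in the homodimer line and in the 3 groups with an E-protein partner (1.38 to 1.54) and fell in the untreated monomer line (-1.37, edgeR adjusted p = 0.017). Nectin4 fell in the homodimer (-0.69), TCF3-labelled (-1.57), TCF4 (-0.66) and TCF12-labelled groups (-0.84; edgeR adjusted p = 0.047, 2.8e-05, 0.034 and 0.0063). It did not pass in either monomer group. Of 6 proteases that cleave or process cadherins, 3 rose in the TCF3-labelled libraries, 2 in the treated monomer line and 1 each in the untreated monomer, TCF4 and TCF12-labelled groups, and 1 fell in the TCF12-labelled group. In the homodimer line edgeR called 0 of the 6, with 3 at an unadjusted p under 0.05. Adam10, the E-cadherin sheddase, rose in the TCF3-labelled (0.69) and treated monomer groups (0.34). Furin, which removes the propeptide, rose in the untreated monomer (0.52), treated monomer (0.35) and TCF3-labelled groups (0.31). Mmp14 rose in the TCF3-labelled (0.61), TCF4 (0.42) and TCF12-labelled groups (0.57).

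The genes most like each member over the 21 libraries were found by Pearson's r among the 10609 genes whose mean level reached 5 CPM (10610 for Cdh6), as a description in which the points share groups, libraries and depth. For Cdh1 they were Rab11fip1 (0.97) and Rragd (0.96), and for Cdh3 Lbh and Itsn1 (both 0.91). For Cdh2 they were Manea and Prickle1 (both 0.94), and for Cdh4 Arid5b (0.96) and Atp6v1a (0.95). For Cdh6 they were Nfxl1 (0.95) and Clcn5 (0.94), and for Cdh11 Sh3pxd2a (0.99) and Cplx2 (0.97). For Pcdh8 they were Fgf8, which is itself in the streak marker list, and Eras (both 0.92). The rank correlations of these 2 with Pcdh8 were lower, 0.70 and 0.65, beside at least 0.86 for the other pairs named. Among the members, the highest r over the 21 libraries was that of Cdh4 with Cdh6 (0.84), then Cdh2 with Cdh11 (0.80), and the lowest was that of Cdh3 with Pcdh8 (-0.57).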

How the data were processed

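Raw read counts per gene were used as deposited, 1 table for each of 21 bulk RNA-seq libraries made with a TruSeq mRNA kit per the labels' protocols. The submitters' processing notes name FastQC, TopHat2, HTSeq and the builds mm10 and GRCm38; their versions, settings and strand option are not given in the sources used here. In 18 of the tables, 25 gene symbols had been turned into dates; these rows, none of them a member, were joined by position with the 3 TCF12 tables, and that difference in handling and the group cannot be told apart. Gene positions and exonic lengths came from GENCODE M21 (GRCm38).

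All 21 libraries were fitted together with 1 mean per group in edgeR 4.0.16 (R 4.3.3, limma 3.58.1): filterByExpr with a minimum count of 10 and total of 15, TMM scaling, quasi-likelihood F-test, Benjamini-Hochberg adjustment over 14311 genes and a threshold of 0.05. The standard error is the log2 fold change divided by the square root of F. CPM used library size times the TMM factor. The procedure was tested on simulated data. Alternatives were DESeq2 1.42.0, RLE scaling, library size alone, no filter, a filter of 1 CPM in at least 3 samples, a replicate block and fits of the compared groups alone. Each library of the groups compared was also left out in turn, and TCF12 replicate 1 was left out in every comparison.

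The members and lists were chosen with earlier results of these data known. All 7 members are named in every group. From the other lists, up to 3 genes each with the largest change among those that passed against the parental line, at a mean of at least 1 CPM in the higher group, and Snai1, Snai2, Zeb1 and Zeb2 could be named, and for each member the 2 most similar genes. Fgf8, Twist1 and the partner genes are named besides. No tables held identical values.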

Additional observations from a re-analysis of the deposited data

Results flagged for a closer look

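In 11 results the effect differed between dimer lines that share the same contrast with the parental line, by the test of the difference itself (edgeR, adjusted over all genes). Between the 3 groups with an E-protein partner and the homodimer line, the log2 difference was 2.82 for Cdh11 (adjusted p = 2e-09), 0.42 for Cdh3 (0.0025) and 0.36 for Cdh2 (0.028). Between the TCF3-labelled and TCF4 libraries it was -0.53 for Cdh1, -0.62 for Cdh3, 0.58 for Cdh11 and 1.12 for Cdh6 (edgeR adjusted p = 0.00091, 0.00026, 0.014 and 0.020). Between the TCF12-labelled and TCF4 libraries it was -0.38 for Cdh1 and -0.47 for Cdh3 (edgeR adjusted p = 0.044 and 0.021). Between the TCF3-labelled and TCF12-labelled libraries it was 1.03 for Cdh6 and -0.70 for Pcdh8 (edgeR adjusted p = 0.037 and 0.0090). Among these, the results for Cdh11 and Cdh3 against the homodimer line and for Cdh1 and Cdh3 between the TCF3-labelled and TCF4 libraries passed in every alternative.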

How the results depend on the processing

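The libraries left out were those of the groups compared and TCF12 replicate 1. Leaving out 1 library at a time gave 1 to 4 members called for the homodimer against the parental line (2 with all libraries), 4 to 7 for the untreated monomer (4) and 3 to 5 for the TCF12-labelled libraries (4). It gave 1 to 4 for the homodimer (3), 1 to 3 for the TCF3-labelled (3) and 2 to 7 for the TCF12-labelled libraries (5) against the treated monomer line. It gave 2 to 5 for TCF3 against TCF4 (4), 0 to 3 for TCF12 against TCF4 (2), 1 to 3 for TCF3 against TCF12 (2) and 2 to 5 for the partner groups against the homodimer (3). Fitting only the groups compared gave 5 for the homodimer, 7 for the untreated monomer and 2 for the TCF12-labelled libraries against the parental line, and 2 for the TCF12-labelled libraries against the treated monomer line. In that fit edgeR called 0 for TCF12 against TCF4 and 0 for TCF3 against TCF12, where 2 members each had an unadjusted p under 0.05. DESeq2, run on all 21 libraries, called 2 in each of these comparisons. The 0 without TCF4 replicate 2 or 3 (edgeR) stood beside 4 and 3 members at an unadjusted p under 0.05, and the cause was not tested. Scaling by library size alone gave 1 for the homodimer against the parental line and 1 for TCF12 against TCF4. Among all genes, the count called for the untreated monomer against the parental line was 2854, 5029 when only these groups were fitted and 5312 without TCF12 replicate 1, and for the TCF12-labelled libraries it was 3864 and 824 when only these groups were fitted. For TCF12 against TCF4 it was 464, and 49 to 4868 with 1 library left out, and for TCF3 against TCF12 it was 2686, and 236 when only these groups were fitted.

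Each reversal concerned a difference that did not pass with all libraries. With library size alone, Cdh1 turned to 0.012 (treated against untreated monomer), 0.018 (TCF3 against untreated) and 0.0063 (TCF3 against treated monomer). Cdh2 between TCF12 and TCF4 was 0.0011, then -0.064 with library size alone, -0.0049 with no filter and -0.0030 with the replicate block, and -0.18 to 0.15 with 1 library left out. The other ranges with 1 library left out were -0.16 to 0.078 (Cdh4, homodimer against parental), -0.45 to 0.086 (Cdh4, TCF12 against parental), -0.088 to 0.25 (Cdh2, TCF12 against parental), -0.052 to 0.092 (Cdh4, treated against untreated monomer), -0.052 to 0.24 and -0.038 to 0.26 (Cdh1, TCF12 against untreated and treated monomer), -0.015 to 0.13 (Cdh2, homodimer against treated monomer), -0.10 to 0.13 (Cdh4, partner groups against homodimer), -0.26 to 0.26 and -0.35 to 0.44 (Cdh4 and Cdh6, TCF12 against TCF4) and, for TCF3 against TCF12, -0.12 to 0.28 (Cdh11), -0.082 to 0.28 (Cdh2), -0.32 to 0.0048 (Cdh1) and -0.31 to 0.0061 (Cdh3). Replicate numbers did not pair the samples: the mean correlation of deviations was 0.0214 over 63 same-numbered and -0.0102 over 126 other pairs. The replicate block changed no count of members called: 4, 5, 2, 4, 3 and 4 against the parental line. Over all member results, 887 values kept direction and side of the threshold outside the left-out fits, 16 passed newly, 22 no longer passed and 6 reversed. With 1 library left out, 819 kept both, 23 passed newly, 65 no longer passed and 24 reversed.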
